A study of Mus musculus with 8 samples.

Results

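The genes described here make up the DNA replication machinery: origin licensing factors, the replicative helicase and polymerases, the sliding clamp and its loader, enzymes of deoxynucleotide supply, chromatin assembly and checkpoint factors, and the E2F transcription factors. They were chosen by name, as the rows of the gene table whose symbol is on a list of 48, and all 48 were found among the 23997 genes of the table. The table comes from RNA sequencing of mouse marginal zone B cells (MZBs, C57BL/6 strain), with 4 libraries of ACKR3+ cells and 4 of ACKR3- cells. ACKR3 is an atypical receptor that scavenges the chemokine CXCL12; the labels give its state as the genotype and the titles name the same groups by GFP. The labels name no treatment and no time, and how the GFP reporter was made is not given in the sources used here.

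Each gene has 1 estimated number of fragments in each of 2 pooled conditions, q2 and q1, and a variance beside each. Neither column name matches a label, so neither is called ACKR3+ or ACKR3- here. Ackr3 itself had 149 fragments in q2 and 1030 in q1, and this level was not used to assign the columns. Over all genes the columns summed to 16653774 fragments in q2 and 16877559 in q1; the depth of each library is unknown. With 1 value per condition no difference has a replicate check, so no p-value is given and differences are described by size. The value after ± is an SD taken from the deposited variances. Log2 ratios are q2 over q1 with a pseudocount of 1, given where the higher of the 2 columns reached 100 fragments, which 44 of the 48 replication genes and 9582 of all genes reached. Fragment numbers grow with transcript length, so levels of different genes are compared only per kilobase.

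DNA replication is prepared in the G1 phase, when the origin recognition complex, Cdc6 and Cdt1 load the MCM helicase onto DNA. In S phase Cdc45 and the GINS complex turn the loaded helicase into a moving replisome, and polymerase alpha with primase starts the strands that polymerases delta and epsilon extend on the PCNA clamp. Many of these genes are known targets of the E2F factors and are transcribed mainly in cycling cells; most MZBs are resting cells, and B cells divide rapidly in germinal centers and as plasmablasts.

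Replication genes were higher in q2. Together they had 34152 fragments in q2 and 24081 in q1, a 1.42-fold difference, or 0.205% of all fragments in q2 and 0.143% in q1. Of the 44 with at least 100 fragments, 43 were higher in q2, where 50.2% of all genes compared were, and Tk1 was the member higher in q1. Their median log2 ratio was 0.51, against 0.00 for all genes. At least 2-fold higher in q2 were 7 of the 44, namely E2f8, Rrm2, Cdc6, Mcm10, Cdc45, Chek1 and Lig1, a share of 15.9% where 1.84% of all genes were that far apart in this direction. None was 2-fold higher in q1, as were 0.438% of all genes. Among the 44, E2f8, Cdc6, Mcm10, Cdc45, Chek1 and Pole2 reached the minimum of 100 fragments in q2 alone. Genes that enter in this way can only be higher in q2, and the same minimum was used for all genes. Rrm2 and Lig1 reached it in both columns. With a 1.5-fold rule 20 of the 44 counted, against 3.39% of all genes, and 25 lay more than 2 SD toward q2, against 4.15% of all genes.

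Most of these genes therefore differed by less than 2-fold. Nearest to the 2-fold line were Lig1 on its far side, with a 2.21-fold difference, and Chaf1a on its near side, with 1.92-fold. Nearest to the minimum of 100 fragments were Pole2, with 118 fragments in its higher column, and E2f7, which stayed below it with 89.7. The members with the lower mean counts (22 genes, means of 97.4 to 418 fragments) had a median log2 ratio of 0.55, and 5 of them, or 22.7%, were at least 2-fold higher in q2, where 4.12% of all genes in that range of means were. Each of these 5 genes reached the minimum in q2 alone. The 22 with the higher means (459 to 2061 fragments) had a median of 0.51, and 2 of them, or 9.09%, passed 2-fold, where 0.502% of all genes in that range did.

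**Figure D1:**
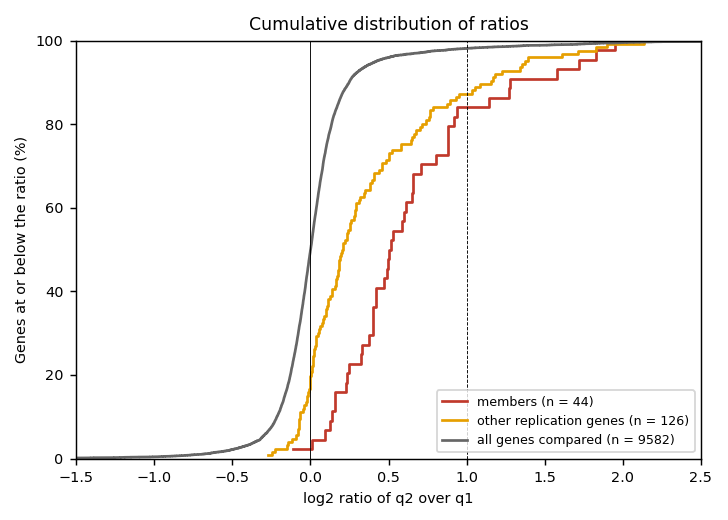
Cumulative share of genes (vertical axis, %) at or below each log2 ratio of q2 over q1 (horizontal axis, drawn from -1.5 to 2.5) for the 44 replication genes, 126 other genes of the pathway and all 9582 genes compared. The curve of the replication genes lies to the right of that of all genes, with medians of 0.51 and 0.00, and the curve of the other pathway genes, with a median of 0.21, lies between them.

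Markers of B cell states moved with these genes. Each of 10 germinal center markers had more fragments in q2, 9 at least 2-fold more, and they summed to 3317 fragments in q2 and 753 in q1. Over all genes compared 50.2% were higher in q2 and 1.84% at least 2-fold higher. Of 8 plasma cell markers 7 reached 100 fragments and 6 of these were higher in q2, 5 of them at least 2-fold. The 8 summed to 54497 fragments in q2 and 18422 in q1, and most of the q2 sum was Igj, with 33006 fragments in q2 and 3234 in q1. Prdm1 had a small ratio, at 0.25 ± 0.24, and Irf4 was lower in q2, at -0.28 ± 0.18. Of the 6 follicular B cell markers 5 were higher in q2 and 2 passed 2-fold. Their log2 ratios had a median of 0.91, and their sums were 14423 fragments in q2 and 9955 in q1. The largest ratios in that list were those of Fcer2a, encoding CD23, at 1.73 ± 0.20 (2265 fragments in q2, 683 in q1), and Bach2, a transcriptional repressor, at 1.37 ± 0.20 (1995 fragments in q2, 772 in q1). Of the 10 marginal zone markers 9 were higher in q1, with sums of 132738 fragments in q2 and 159244 in q1. The pan-B markers Cd79a, Cd79b, Ms4a1, Pax5 and Cd22 were measured in both columns, from 476 fragments per kilobase of the longest annotated transcript for Pax5 to 20761 for Cd79a in q2 and from 513 for Pax5 to 21058 for Cd79a in q1. In pooled bulk samples, fewer cells of a type and less RNA per cell cannot be told apart, and the part of germinal center, plasma or follicular cells in the replication result was not tested.

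Markers of other cell types varied in level and direction. Of the 7 T cell markers the CD3 genes Cd3d, Cd3e and Cd3g had between 33.7 and 47.9 fragments in q2 and between 22.8 and 34.5 in q1. The T cell kinase genes Lck and Zap70 reached 100 fragments and differed in opposite directions, Lck with 689 in q2 and 524 in q1 and Zap70 with 166 in q2 and 238 in q1. All 7 summed to 1092 fragments in q2 and 930 in q1.

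The 8 macrophage and monocyte markers summed to 881 fragments in q2 and 1164 in q1, and they moved both ways. Csf1r, Slc40a1, Hmox1 and Vcam1 were at least 2-fold higher in q1, with 64.8 to 88.3 fragments in q2 and 184 to 212 in q1. Ly6c2 was 3.51-fold higher in q2, with 208 fragments in q2 and 59.4 in q1. The part of these cells in the replication result was not tested. The 5 erythroid markers summed to 85.5 fragments in q2 and 94.4 in q1. The neutrophil, NK cell and platelet markers summed to 25.6, 63.6 and 28.6 fragments in q2 and to 17.8, 39.1 and 22.4 in q1. Pf4 and Gp9 of the platelet list were listed at 0 in q1, and Pdpn of the stromal list at 0 in q2. The 4 dendritic cell markers summed to 356 fragments in q2 and 202 in q1, and these markers also moved both ways. Itgax (177 fragments in q2, 80.4 in q1) and Flt3 (156 in q2, 81.0 in q1) were higher in q2. Itgax and Flt3 reached the minimum in q2 alone. Zbtb46 (18.1 fragments in q2, 27.0 in q1) and Siglech (5.11 in q2, 13.7 in q1) were lower in q2. The 4 stromal and endothelial markers summed to 3598 fragments in q2 and 3496 in q1, nearly all of it Pecam1.

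The promoters of the replication genes were searched for letters of known cell cycle elements. Many of these genes are known E2F targets and were chosen by name. A raised share of E2F letters therefore describes the list, not the difference between q2 and q1. RefSeq promoters (GRCm38.p6, 250 bases before to 50 after the annotated start) were found for 41 of the 48 genes, 47 promoters in all. Gmnn, Mcm4, Gins1, Gins2, Prim2, Pole and Rfc2 had none in the table. An E2F site was taken as TTTCCCGC, TTTCGCGC, TTTGCCGC or TTTGGCGC on either strand. It was present in 15 of the 47 promoters (31.9%), against 4.19% of the promoters of genes with at least 100 fragments and 2.26% of all promoters. The E2F core GGCGGGAA, which overlaps the first of these words by 7 letters on the other strand, was in 7 promoters (14.9%), against 4.20% for genes with at least 100 fragments and 2.19% of all promoters. A CCAAT box, searched as CCAAT on either strand, was in 27 promoters (57.4%), against 38.1% for genes with at least 100 fragments and 37.4% of all promoters. Of its 49 matches 32 lay within the 100 bases before the start.

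The other elements were nearly as frequent in genes with at least 100 fragments at large. The CHR, searched as TTTGAA, was in 6 of the 47 promoters (12.8%), against 11.98% for genes with at least 100 fragments and 17.9% of all promoters. The GC box GGGCGG was in 32 (68.1%), against 63.9% for genes with at least 100 fragments and 35.7% of all promoters. Genes with and without the E2F letters overlapped in ratio. The 13 genes of at least 100 fragments with an E2F match had a median log2 ratio of 0.65, from 0.16 for Cdt1 to 1.72 for Cdc6, and 2 of them were at least 2-fold higher in q2. The 26 with a promoter and no match had a median of 0.50, from -0.11 for Tk1 to 1.95 for E2f8, and 5 of them were. Some of these 26, such as Chek1, hold the E2F core. The 18 genes with an E2F or E2F core match had a median of 0.68, and 3 were at least 2-fold higher in q2. The 21 with neither had a median of 0.47, and 4 were at least 2-fold higher in q2. A match is a description of letters, not of binding.

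The stretches below show the E2F matches in capitals, each with up to 30 bases on either side, for the gene with the highest ratio among those with a match and at least 100 fragments in each of 6 functional groups, and for Mcm3, Mcm5 and Mcm6, added after their values were seen because the MCM subunits differed together. The letters were not shared by all of these subunits, since Mcm2, with a log2 ratio of 0.59, has a promoter with no match, and the 2 matches of Mcm7 are not shown. Mcm5 and Mcm6 each hold a pair of overlapping matches on opposite strands. E2f8, the gene with the highest ratio among those with at least 100 fragments, has no match, and the 50 bases on each side of its start are given.
Cdc6, chr11:98907983-98908050, plus strand: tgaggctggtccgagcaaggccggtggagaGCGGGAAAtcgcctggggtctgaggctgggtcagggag
Mcm3, chr1:20820263-20820323, minus strand: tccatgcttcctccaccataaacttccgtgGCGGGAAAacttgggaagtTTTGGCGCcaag
Mcm5, chr8:75109326-75109397, plus strand: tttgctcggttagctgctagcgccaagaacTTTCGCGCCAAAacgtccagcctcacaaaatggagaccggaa
Mcm6, chr1:128359715-128359845, minus strand: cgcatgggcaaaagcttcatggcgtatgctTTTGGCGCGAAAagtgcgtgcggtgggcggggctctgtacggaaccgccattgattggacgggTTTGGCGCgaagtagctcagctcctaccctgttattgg
Pola1, chrX:93632256-93632323, minus strand: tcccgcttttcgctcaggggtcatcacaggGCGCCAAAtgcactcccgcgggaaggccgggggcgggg
Rfc3, chr5:151651171-151651248, minus strand: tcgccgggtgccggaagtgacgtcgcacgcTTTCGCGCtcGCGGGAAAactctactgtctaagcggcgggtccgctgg
Lig1, chr7:13278822-13278875, plus strand: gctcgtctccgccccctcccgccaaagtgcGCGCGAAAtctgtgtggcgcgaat
Brca2, chr5:150522423-150522490, plus strand: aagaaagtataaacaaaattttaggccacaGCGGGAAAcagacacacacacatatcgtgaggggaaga
E2f2, chr4:136172283-136172323, plus strand: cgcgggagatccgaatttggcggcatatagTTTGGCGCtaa
E2f8, chr7:48881547-48881646, minus strand: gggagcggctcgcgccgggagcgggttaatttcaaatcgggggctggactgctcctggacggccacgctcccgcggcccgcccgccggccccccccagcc

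**Figure D2:**
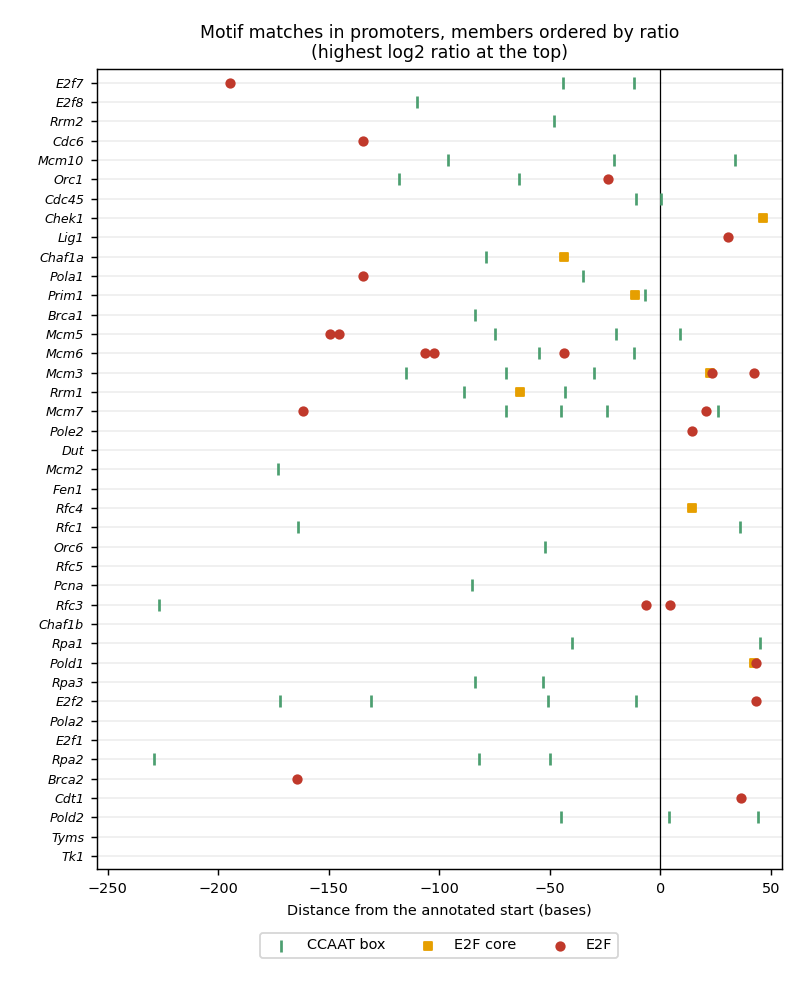
Positions of E2F, E2F core and CCAAT matches (symbols) relative to the annotated start (horizontal axis, bases) in the promoters of the 41 replication genes that have one, with the highest log2 ratio of q2 over q1 at the top; matches in several promoters of a gene share a line. E2F matches lie both upstream of the start and just after it, on genes throughout the order of ratios.

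Among the licensing genes, the 6 subunits of the MCM helicase, the ring that unwinds DNA at the fork, were all higher in q2 and by similar amounts. Mcm5 had 1305 ± 124 fragments in q2 and 709 ± 72.3 in q1, a log2 ratio of 0.88 ± 0.20. Mcm6 had 1781 ± 162 in q2 and 1022 ± 97.7 in q1, and stood at 0.80 ± 0.19. Mcm3 stood at 0.70 ± 0.20 (1341 fragments in q2, 822 in q1), Mcm7 at 0.65 ± 0.20 (1207 fragments in q2, 768 in q1) and Mcm2 at 0.59 ± 0.20 (1226 fragments in q2, 817 in q1). Mcm4 was the smallest, with 1725 ± 157 in q2 and 1204 ± 112 in q1, at 0.52 ± 0.19. Each of the 6 ratios was more than 2 SD above 0, and the 6 SDs were between 0.19 and 0.20. They supplied 3243 of the 10071 fragments by which the replication genes together exceeded q1 in q2, or 32.2%.

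The factors that load the helicase differed more among themselves. Cdc6, the ATPase that recruits the MCM ring to the origin, had 207 ± 29.9 fragments in q2 and 62.2 ± 13.6 in q1, a 3.33-fold difference and a log2 ratio of 1.72 ± 0.37. Cdt1, its partner in loading, was near equal with 785 ± 78.6 in q2 and 704 ± 71.9 in q1, at 0.16 ± 0.21. Gmnn, encoding geminin, the inhibitor of Cdt1, was likewise close, with 282 ± 36.5 fragments in q2 and 256 ± 34.0 in q1, at 0.14 ± 0.27. Of the origin recognition subunits, Orc6 had 312 ± 39.3 in q2 and 222 ± 31.0 in q1, at 0.49 ± 0.27. Orc1, the largest subunit, had 61.9 ± 13.6 in q2 and 24.9 ± 7.65 in q1, below the minimum.

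**Figure D3:**
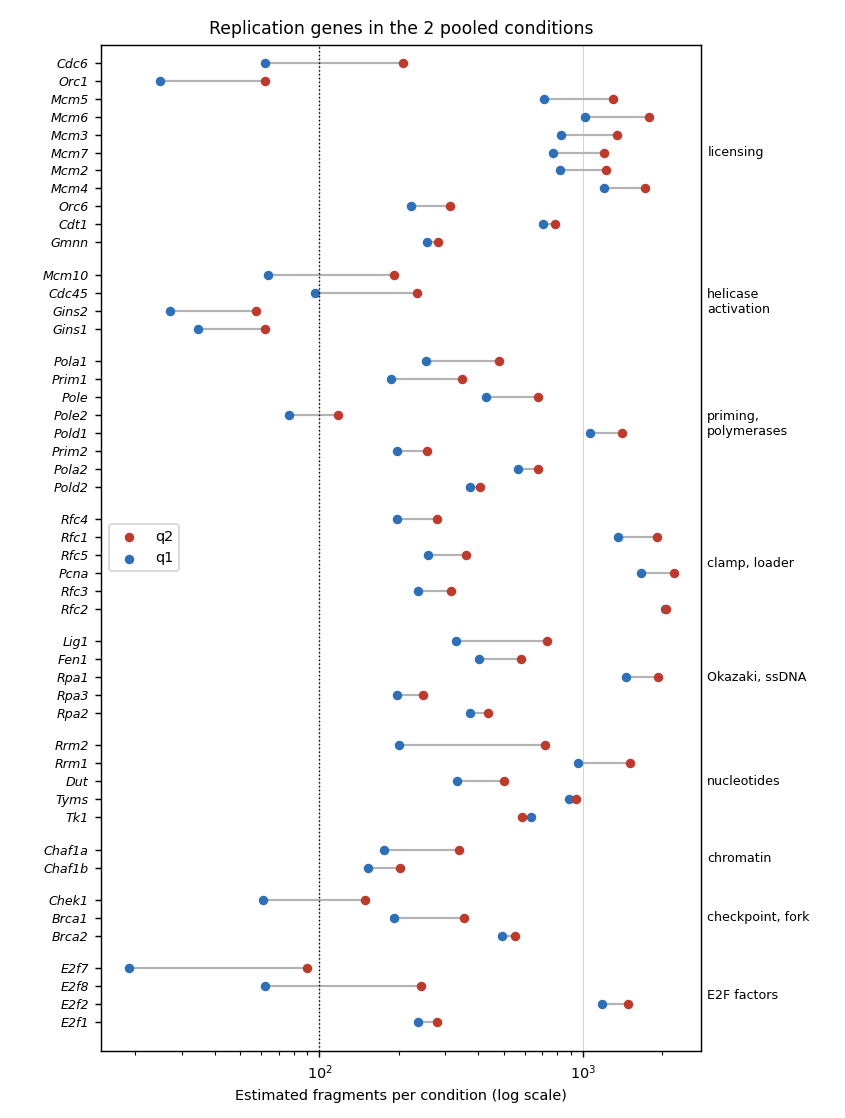
Estimated fragments of each of the 48 replication genes in q2 and q1 (points, log axis), grouped by function; the dotted line marks the minimum of 100 fragments. The q2 point lies to the right of the q1 point for every gene except Tk1, with the widest gaps for E2f7, E2f8, Rrm2 and Cdc6.

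Genes that activate the loaded helicase had large ratios and low counts. Mcm10, which is needed for the helicase to start moving, had 193 ± 28.7 fragments in q2 and 63.8 ± 13.8 in q1, a 3.02-fold difference and a log2 ratio of 1.58 ± 0.37. Cdc45, which joins MCM and GINS in the active helicase, had 233 ± 32.3 in q2 and 95.8 ± 17.8 in q1, at 1.28 ± 0.33. Gins1 and Gins2, subunits of GINS, stayed below 100 fragments, Gins1 with 62.4 ± 13.9 in q2 and 34.5 ± 9.38 in q1, and Gins2 with 57.3 ± 34.0 in q2 and 27.0 ± 22.7 in q1. The deposited SD of Gins2 is wide beside its count, and 67.3% of its annotated exon bases lie on exons of Gse1 on the other strand.

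All 8 polymerase and primase genes were higher in q2 and none by 2-fold. Pola1, the catalytic subunit of polymerase alpha, had 482 ± 54.4 fragments in q2 and 254 ± 33.9 in q1, a log2 ratio of 0.92 ± 0.25. Prim1, the catalytic primase subunit, had 346 ± 42.2 in q2 and 187 ± 27.5 in q1, at 0.88 ± 0.27. Their partner subunits had smaller ratios, with Pola2 at 0.25 ± 0.21 (676 fragments in q2, 569 in q1) and Prim2 at 0.37 ± 0.28 (256 fragments in q2, 197 in q1). The leading strand polymerase epsilon showed close ratios in its catalytic subunit Pole, at 0.66 ± 0.22 (675 fragments in q2, 427 in q1), and in Pole2, at 0.61 ± 0.38 (118 fragments in q2, 76.9 in q1). For polymerase delta, which copies the lagging strand, Pold1 had 1404 ± 129 in q2 and 1066 ± 101 in q1, at 0.40 ± 0.19, and Pold2 stood at 0.12 ± 0.24 (406 fragments in q2, 373 in q1).

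The sliding clamp and its loader differed moderately. Pcna, the clamp that holds polymerases on DNA, had 2218 ± 198 fragments in q2 and 1656 ± 150 in q1, a log2 ratio of 0.42 ± 0.18. Rfc1, the large subunit of the clamp loader, had 1910 ± 171 in q2 and 1354 ± 124 in q1, at 0.50 ± 0.18. The small subunits Rfc3 and Rfc5 stood at 0.42 ± 0.27 (316 fragments in q2, 237 in q1) and 0.47 ± 0.26 (359 fragments in q2, 259 in q1). Rfc2 was the exception, with 2067 ± 183 in q2 and 2055 ± 182 in q1, at 0.01 ± 0.18. Rfc4 had 280 ± 208 in q2 and 197 ± 177 in q1, at 0.50 ± 1.68; its deposited coefficients of variation, 74.3% in q2 and 89.9% in q1, were 5.73 and 6.22 times the median of the genes nearest in count. Of the exon bases of Rfc4, 12.7% lie on exons of the opposite-strand gene Eif4a2, which had 16747 fragments in q2 and 17370 in q1; the part of this overlap was not tested.

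In Okazaki fragment processing, Lig1, the ligase that seals the fragments, had 730 ± 84.8 in q2 and 330 ± 43.6 in q1, a 2.21-fold difference and a log2 ratio of 1.14 ± 0.25. Fen1, the nuclease that removes their flaps, had 584 ± 62.8 in q2 and 404 ± 47.7 in q1, at 0.53 ± 0.23. The subunits of RPA, which coats single-stranded DNA, were within 1.5-fold. Rpa1 stood at 0.40 ± 0.18 (1919 fragments in q2, 1453 in q1), Rpa3 at 0.33 ± 0.28 (247 fragments in q2, 196 in q1) and Rpa2 at 0.23 ± 0.24 (437 fragments in q2, 374 in q1).

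The nucleotide genes spanned nearly the whole range seen. Rrm2, the S phase subunit of ribonucleotide reductase, had 717 ± 75.5 fragments in q2 and 201 ± 29.0 in q1, a 3.56-fold difference and a log2 ratio of 1.83 ± 0.26. Rrm1, the large subunit of the same enzyme, had 1507 ± 138 in q2 and 956 ± 92.4 in q1, at 0.66 ± 0.19. Dut, the dUTPase that keeps uracil out of DNA, had 503 ± 55.9 in q2 and 332 ± 40.9 in q1, at 0.60 ± 0.24. Tyms, thymidylate synthase, was near equal with 941 ± 90.6 in q2 and 882 ± 86.7 in q1, at 0.09 ± 0.20. Tk1, the cytosolic thymidine kinase, was slightly lower in q2, with 585 ± 78.5 in q2 and 632 ± 82.2 in q1, at -0.11 ± 0.27. The difference of Tk1 is smaller than its SD.

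**Figure D4:**
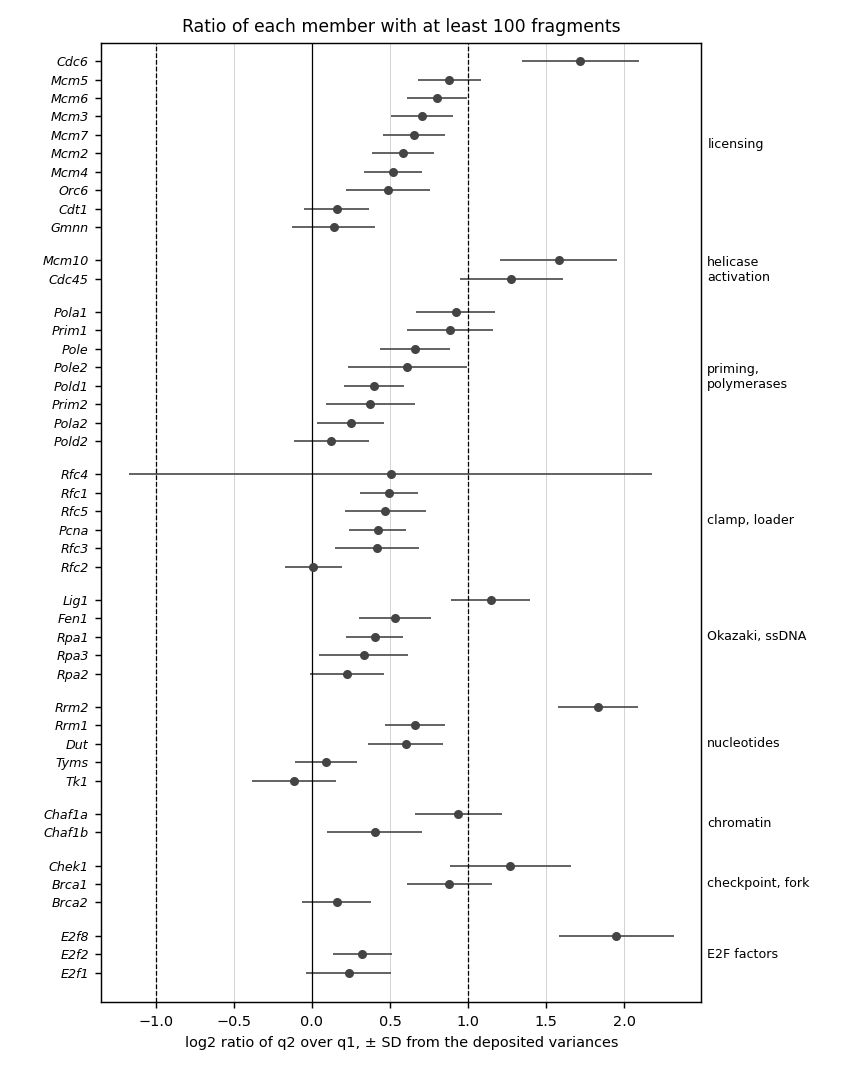
Log2 ratio of q2 over q1 (points) with the SD from the deposited variances (bars) for the 44 replication genes with at least 100 fragments, grouped by function; dashed lines mark 2-fold. All points but that of Tk1 lie right of 0, 7 lie beyond 1, and the bar of Rfc4 is the widest.

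Of the chromatin assembly factor subunits, which deposit histones behind the fork, Chaf1a had 338 ± 41.8 fragments in q2 and 176 ± 26.4 in q1, a log2 ratio of 0.94 ± 0.28. Chaf1b had 203 ± 29.2 in q2 and 153 ± 24.1 in q1, at 0.40 ± 0.31. Chek1, the checkpoint kinase that answers stalled forks, had 149 ± 24.0 in q2 and 61.2 ± 13.5 in q1, a 2.43-fold difference and a log2 ratio of 1.27 ± 0.39. Brca1, which protects forks and directs repair by recombination, had 353 ± 43.2 in q2 and 192 ± 28.0 in q1, at 0.88 ± 0.27. Brca2, which acts in the same repair pathway, was close, with 552 ± 59.2 in q2 and 495 ± 54.4 in q1, at 0.16 ± 0.22.

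Among the E2F factors the atypical repressors stood apart from the activators in size. E2f8 had 242 ± 33.4 fragments in q2 and 62.0 ± 13.6 in q1, a 3.91-fold difference and a log2 ratio of 1.95 ± 0.37. E2f7, its closest relative, had 89.7 ± 17.5 in q2 and 18.9 ± 6.40 in q1, below the minimum and in the same direction. The activators E2f1 and E2f2 had smaller ratios, with E2f1 at 0.23 ± 0.27 (280 fragments in q2, 237 in q1) and E2f2 at 0.32 ± 0.19 (1484 fragments in q2, 1186 in q1). No test of the difference between these genes could be made.

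Per kilobase of the longest annotated transcript, the MCM subunits had similar levels. They ranged over 1.37-fold in q2, from 351 ± 33.3 fragments per kilobase for Mcm2 to 481 ± 43.7 for Mcm4, and over 1.60-fold in q1, from 210 for Mcm5 to 336 for Mcm4. Rrm2 and Rrm1, which work as 1 enzyme, stood at 327 ± 34.4 and 275 ± 25.3 fragments per kilobase in q2 and at 91.7 and 175 in q1. Their order thus differed between the columns, but in q2 the ranges given by the SDs overlapped. It also rests on the longest annotated transcripts, of 2.193 kb for Rrm2 and 5.475 kb for Rrm1, and the transcripts expressed here are not known. The clamp loader subunits were less even, with a 4.32-fold range in q2 and a 5.96-fold range in q1, Rfc2 being the highest and Rfc5 the lowest in both. These ranks rest on the longest annotated transcripts in the same way. Pcna was at 1461 ± 130 fragments per kilobase in q2 and 1091 in q1. E2f7 and E2f8 were at 16.4 ± 3.20 and 65.6 ± 9.05 in q2 and at 3.45 and 16.8 in q1.

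**Figure D5:**
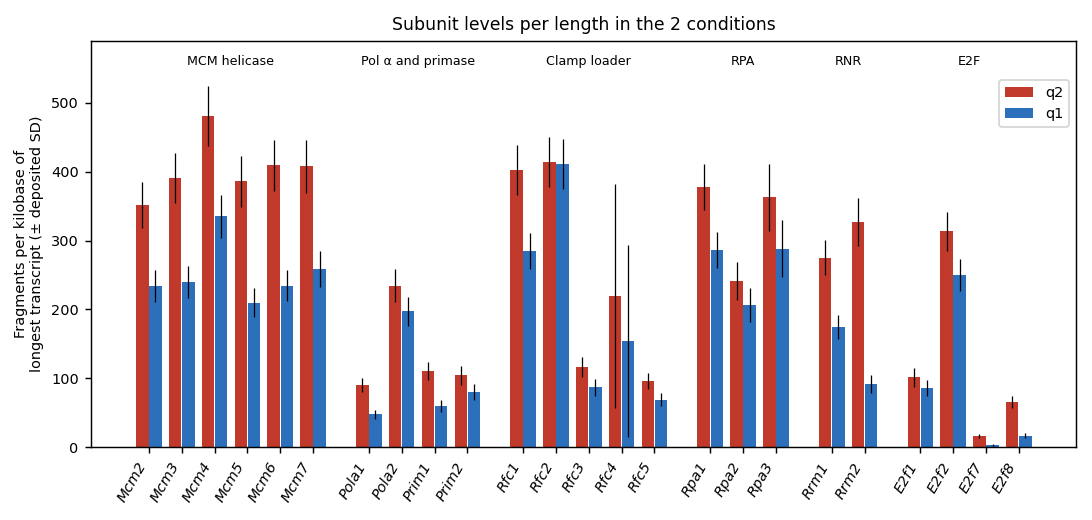
Estimated fragments per kilobase of the longest annotated transcript (bars, with the deposited SD) for subunits of replication complexes and E2F factors, q2 left of q1 for each gene. The MCM subunits lie between 351 and 481 in q2 and between 210 and 336 in q1. In ribonucleotide reductase (RNR) Rrm2 is above Rrm1 in q2, with overlapping SD ranges, and below it in q1.

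Other genes of the pathway were described from 6 lists of 128 genes that hold none of the 48, of which 126 reached 100 fragments. Of these 80.2% were higher in q2, against 50.2% of all genes compared, and their median log2 ratio was 0.21, against 0.00. At least 2-fold higher in q2 were 16 (12.7%), against 1.84% of all genes. None was 2-fold higher in q1, as were 0.438% of all genes. Among other initiation and elongation factors 31 of 35 (88.6%) were higher in q2, with a median of 0.21. The largest ratios there were those of Clspn, the checkpoint mediator claspin, at 1.90 ± 0.32 (345 fragments in q2, 91.6 in q1), Top2a, the topoisomerase that untangles copied DNA, at 1.83 ± 0.20 (2344 fragments in q2, 658 in q1), Ticrr, an initiation factor, at 1.17 ± 0.33 (218 fragments in q2, 96.7 in q1) and Dna2, a flap nuclease, at 0.74 ± 0.29 (268 fragments in q2, 160 in q1). The origin subunits Orc2 to Orc5 were near equal, between 0.02 for Orc3 and 0.26 for Orc5.

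In the list of other nucleotide supply genes 19 of 31 (61.3%) were higher in q2, against 50.2% of all genes compared. The median was 0.02, against 0.00 for all genes. Dck, deoxycytidine kinase, stood at 0.95 ± 0.21 (1087 fragments in q2, 561 in q1). Samhd1, the dNTPase, stood at 0.48 ± 0.18 (6268 fragments in q2, 4482 in q1) and Cmpk1, a pyrimidine monophosphate kinase, at 0.35 ± 0.19 (1539 fragments in q2, 1210 in q1). The purine synthesis genes Gart and Impdh2 were slightly lower in q2, at -0.15 ± 0.18 and -0.14 ± 0.18.

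All 12 genes of a list of chromatin factors were higher in q2, where 50.2% of all genes compared were, with a median of 0.60. They were led by Uhrf1, the partner of maintenance DNA methylation, at 1.37 ± 0.22 (998 fragments in q2, 385 in q1), the histone chaperone Asf1b, at 1.18 ± 0.30 (305 fragments in q2, 133 in q1), the high mobility group gene Hmgb2, at 1.05 ± 0.19 (2610 fragments in q2, 1258 in q1), and the centromeric histone Cenpa, at 0.87 ± 0.28 (309 fragments in q2, 169 in q1). Of 24 checkpoint and fork repair genes 20 (83.3%) were higher in q2, against the same 50.2% of all genes, with a median of 0.27. Brip1, a helicase that binds Brca1, stood at 1.39 ± 0.38 (168 fragments in q2, 63.4 in q1), and Bard1, the partner of Brca1, at 1.09 ± 0.35 (184 fragments in q2, 85.9 in q1). The upstream kinases Atr and Atm were near equal, at -0.02 ± 0.18 and -0.05 ± 0.18.

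Of 15 further E2F, pocket protein and DREAM genes 10 (66.7%) were higher in q2, against 50.2% of all genes compared. The median was 0.06, against 0.00 for all genes. Foxm1, the mitotic transcription factor, stood at 1.34 ± 0.26 (495 fragments in q2, 195 in q1), Mybl2, encoding B-Myb, at 0.70 ± 0.26 (367 fragments in q2, 225 in q1), Rbl1, encoding the pocket protein p107, at 0.65 ± 0.21 (904 fragments in q2, 578 in q1) and Lin54, a DNA-binding DREAM subunit, at 0.28 ± 0.24. Rb1, the retinoblastoma gene, and the repressor E2f4 were near equal, at -0.04 ± 0.20 and -0.02 ± 0.18. All 9 S phase cyclin and kinase genes that reached the minimum were higher in q2, with a median of 0.76. Cdk1, the mitotic kinase, stood at 2.13 ± 0.38 (248 fragments in q2, 55.8 in q1), Ccna2, cyclin A, at 1.71 ± 0.36 (654 fragments in q2, 199 in q1), Dtl, which directs Cdt1 to degradation, at 1.15 ± 0.30 and Ccne1, cyclin E, at 0.78 ± 0.32, whereas Cdk2 was near equal at 0.16 ± 0.20.

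The table does not state whether reads were counted by strand, and exons of several replication genes overlap those of genes on the other strand. For Chaf1a 52.5% of the annotated exon bases lie on exons of Ubxn6, which had 523 fragments in q2 and 586 in q1. For Fen1 78.8% lie on Gm10143, an antisense gene. For Rfc2 15.1% lie on Lat2, with 3105 fragments in q2 and 2782 in q1. Reads from such bases cannot be told apart if strand was not used.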

How the data were processed

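Total RNA was extracted with Trizol and prepared with a TruSeq RNA kit, per the labels' protocols. Tools named in the submitters' processing notes are TopHat2 2.0.14, Cuffdiff 2.2.1 and cutadapt 1.8.1, with the mm10 build; annotation and filters are not stated there. The deposited table gives estimated counts of fragments per gene and condition with their variances, per the file headers. The scaling, and whether a variance refers to 1 library or to a condition, is not stated, so how much of the spread between mice each SD holds is unknown. No gene had an isoform assignment variance above 0.

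Log2 ratios of q2 over q1 used a pseudocount of 1, which understates changes of low genes, and a minimum of 100 fragments in the higher column. Their SD was taken to first order from the 2 variances. The size rule was 2-fold. No test across libraries was possible with 1 value per condition. Transcript length, GC content, exon overlaps and gene coordinates came from GENCODE M21 (GRCm38), which held 22694 symbols as written and 930 more under a synonym in RefSeq, all 48 replication genes among them. Promoters are those of RefSeq on GRCm38.p6; motif shares count promoters. The calculation was tested on simulated data. The genes, lists and motifs were chosen with earlier results of these data known; named genes are the 48, up to 4 per other list by absolute ratio (a few are not reported here), the markers, and some added after their values were seen (Orc2 to Orc5, Gart, Impdh2, Atr, Atm, Rb1, E2f4 and Cdk2). Python 3.11.15, pandas 2.3.3 and numpy 2.4.6 were used.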

Additional observations from a re-analysis of the deposited data

How the results depend on the processing

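No paired analysis was possible because replicates were pooled before deposit and no column has a replicate number; leaving out a library could not be done either. With a minimum of 500 fragments, which leaves fewer genes, 2 of 23 replication genes were at least 2-fold higher in q2 (7 of 44 with 100) and 22 of 23 were higher at any size (43 of 44 with 100), and 4 of 66 other pathway genes passed 2-fold (16 of 126 with 100); 0.631% of all genes passed it at that minimum. With a 1.5-fold rule the counts were 20 of 44 and 31 of 126, where 3.39% of all genes passed. Under the other settings (a minimum of 20 or none, pseudocounts of 0 and 10, totals made equal, the median ratio as scale, and ratios corrected for GC, length and mean count; for the 2-fold counts also a further rule of 2 SD) the counts stayed within 1.5 times. They ranged from 7 to 10 for the replication genes and from 13 to 18 for the other genes. The median log2 ratio of the replication genes ranged from 0.47 with the correction to 0.56 with a minimum of 20, and that of the other genes from 0.15 with the correction to 0.22 with equal totals. Of 220 single ratios recomputed, 0 changed sign and 0 left the exact (Clopper-Pearson) 95% counting interval of the ratio, which covers counting error only. Within those intervals, the correction moved 6 log2 ratios by over 1.5 times: Rpa3 to 0.10 (0.33 without it), Prim2 to 0.24 (0.37), Gmnn to 0.07 (0.14), Brca2 to 0.06 (0.16), Tyms to 0.05 (0.09) and Rfc2 to 0.03 (0.01), and Rfc2 also stood at 0.03 with equal totals. A pseudocount added to both columns could not change a sign, and each of the 2 scalings shifted all ratios nearly alike and by little. Of the settings behind the 220 ratios, mainly the correction for GC, length and mean count could therefore have changed a sign. Low counts limit Orc1, Gins1, Gins2 and E2f7 most.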
